A study of Homo sapiens with 12 samples.

Results

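Prostate luminal, androgen-response, lineage and other expression programs were described in the vehicle-treated baseline of the LNCaP-ER line, which was derived by growth in the antiandrogen enzalutamide (ENZ), beside libraries labelled LNCaP, the parental line. The members were the 3 vehicle-treated LNCaP-ER libraries and the 3 libraries labelled LNCaP, 6 of 12 in the series, compared over the 22913 autosomal genes listed in both count tables, of 29590 names in either. Expression was taken as CPM, a gene's count over its library's total scaled to 1000000, and 13092 of these genes had a mean of at least 1 CPM over the 6 libraries. LNCaP-ER cells had been grown in rising ENZ for 24 weeks and carried a doxycycline (DOX)-inducible shRNA against MUC1 (tet-MUC1shRNA), which the vehicle, 0.1% DMSO for 7 days, left uninduced; no source used here says whether ENZ was present in that culture. The libraries labelled LNCaP are given as wild-type in the labels and as vector in the column names, and carry no stated drug. Each group is 1 line grown in triplicate in serum-supplemented RPMI medium, with RNA from the same kits. The remaining libraries are LNCaP-ER cells given 500 ng/ml DOX and libraries labelled as LNCaP cells that overexpress MUC1-C (LNCaP/MUC1-C OE), and their levels are given beside some results because each shares a table with 1 of the groups. The LNCaP-ER libraries and those labelled LNCaP were deposited in separate tables, so cell line, treatment history and batch cannot be told apart. No test was made.

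LNCaP is a cell line from a lymph node metastasis of prostate cancer that keeps the secretory luminal phenotype of prostate epithelium. In such cells androgen drives genes such as KLK3, which encodes prostate-specific antigen, and TMPRSS2, in chromatin opened by the pioneer factor FOXA1 and shared with the homeodomain factor HOXB13. ENZ blocks androgen signaling, and resistant cells can restore it, replace it with signaling by another steroid hormone, or lose the luminal program and take on neuroendocrine, stem cell or mesenchymal features.

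The libraries labelled LNCaP went against that label in the defining genes of the line, and they and LNCaP/MUC1-C OE are called by their label only. KLK3 was at 123, 148 and 142 CPM in LNCaP-ER vehicle replicates 1, 2 and 3, at 26.8, 23.98 and 23.8 CPM in the libraries labelled LNCaP, and was not counted in any LNCaP/MUC1-C OE library. FOLH1, the gene of prostate-specific membrane antigen, was at 1501, 1757 and 1811 CPM in LNCaP-ER vehicle and at 9.42, 9.44 and 7.45 CPM in the libraries labelled LNCaP. In both genes every LNCaP-ER vehicle library stood above every library labelled LNCaP, and FOLH1, like KLK3, had no count in LNCaP/MUC1-C OE. Conversely VIM, the mesenchymal intermediate filament, was at 4.68, 4.92 and 5.899 CPM in LNCaP-ER vehicle and 508, 457 and 469 CPM in the libraries labelled LNCaP, and GSTP1, a glutathione transferase silenced in LNCaP, had no count in the former and 168, 178 and 175 CPM in the latter, a count made uncertain by a listed copy. A difference below is therefore a difference from the libraries as deposited under that label, and how far it reflects resistance, another cell source or the batch cannot be told apart.

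Depth was 29499008 to 37178704 counts in LNCaP-ER vehicle and 18017941 to 19208944 in the libraries labelled LNCaP, so that 3 counts, used as the floor of a library, equal 0.0807 to 0.102 and 0.156 to 0.167 CPM. Floors cover counting error only. Across the 13092 genes, log2(CPM + 1) correlated at r = 0.991 to 0.998 within LNCaP-ER vehicle, 0.997 to 0.998 within the libraries labelled LNCaP and 0.679 to 0.685 between the groups. LNCaP-ER vehicle correlated with LNCaP-ER DOX at 0.966 to 0.977 and the libraries labelled LNCaP with LNCaP/MUC1-C OE at 0.958 to 0.960; these r are across genes, which are not independent, and pairs within a table share their processing. Replicate 1 of LNCaP-ER vehicle stood apart from replicates 2 and 3, where the chi-square of the counts over its degrees of freedom was 49.1 and 47.5 against them and 4.72 between them. DOX replicate 2, used only for context, had 8.65% of the compared genes at 0 against 22.99% to 35.4% in the other 11 libraries.

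A gene was counted as higher in a group where no library of the groups overlapped and the means differed at least 2-fold, with means under the floor set to it. By this rule 2468 of the 13092 genes (18.9%) were higher in LNCaP-ER vehicle and 3860 (29.5%) were higher in the libraries labelled LNCaP. The median log2 fold, LNCaP-ER vehicle over the libraries labelled LNCaP, was -0.25 with quartiles of -1.23 and 0.66. TMM scaling, which sets the center of the genes near 0, moved that median by 0.20. The counts for gene lists below are read against 18.9% and 29.5%, and list medians against -0.25. In bulk RNA, fewer cells of a type and less RNA per cell cannot be told apart.

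**Figure D1:**
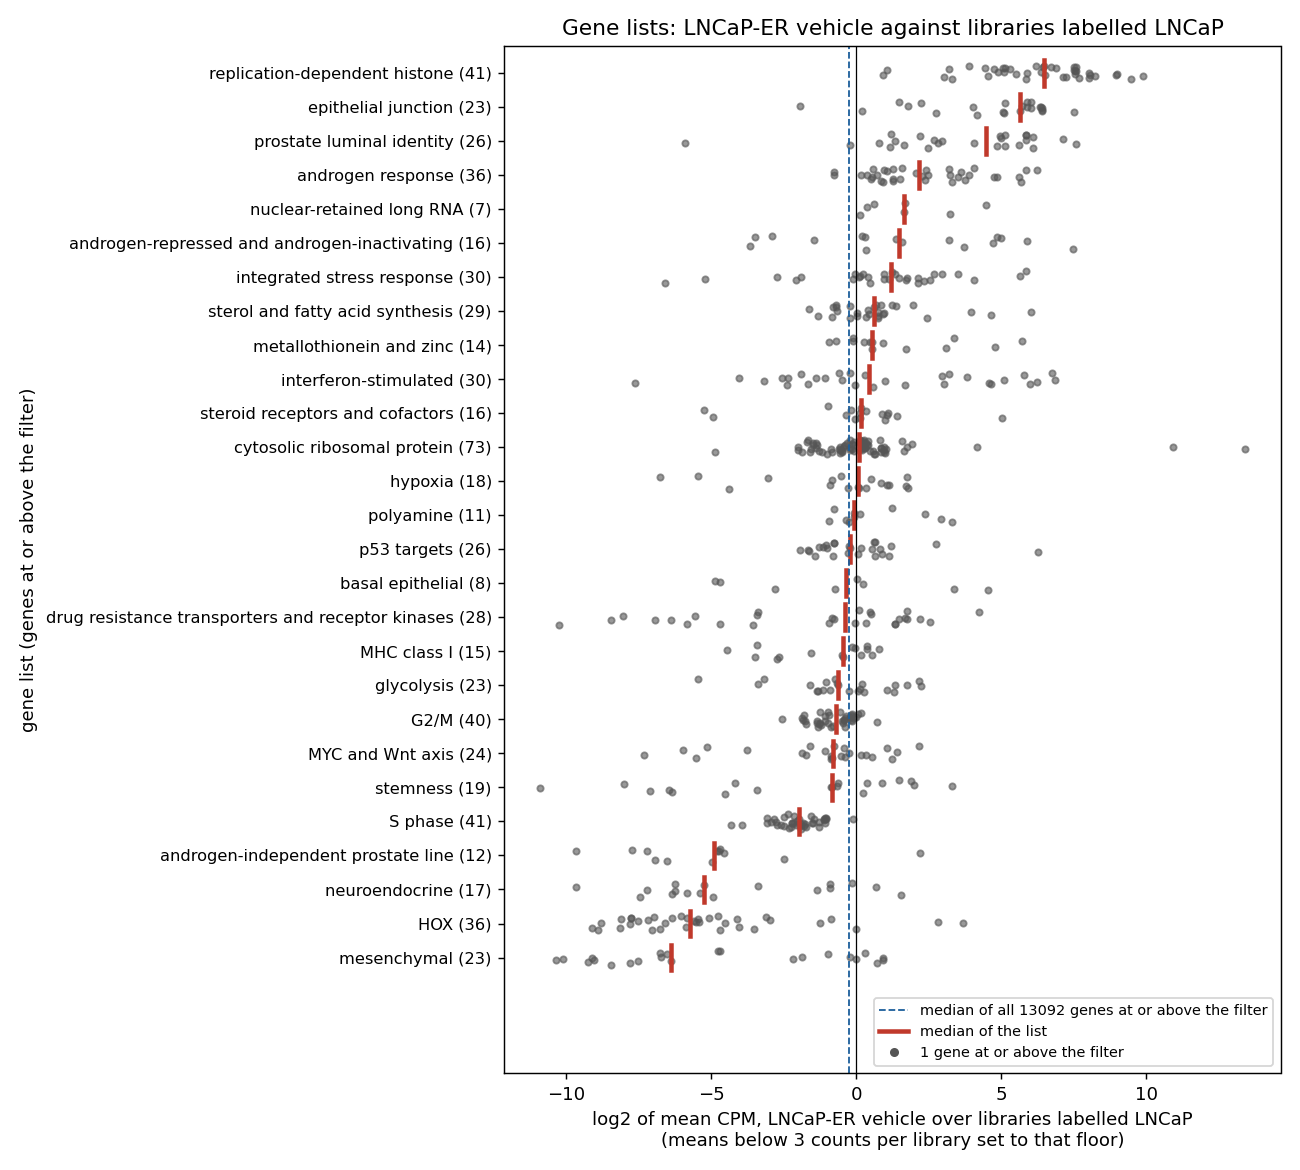
Log2 fold of mean CPM (x axis, LNCaP-ER vehicle over the libraries labelled LNCaP) for each gene list with at least 5 genes at or above 1 CPM (y axis, number of genes in parentheses). Points are genes, red bars are list medians and the dashed line is the median of all 13092 genes at -0.25; medians run from -6.36 for the mesenchymal list to 6.48 for replication-dependent histones.

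Luminal identity genes were higher in LNCaP-ER vehicle. Of 30 listed genes, 26 reached the filter, 23 were higher in LNCaP-ER vehicle, 1 was higher in the libraries labelled LNCaP and the list median was 4.47 (log2). AMACR, KLK11, MSMB and PCA3 were below the filter. STEAP2, a metalloreductase of prostate membranes and the most abundant of the list, was at 2311, 2247 and 2397 CPM against 40.1, 39.5 and 41.2 CPM, a 57.6-fold difference of means. FOLH1 differed 193-fold and TMPRSS2, an androgen-regulated serine protease, 57.4-fold, with TMPRSS2 at 539, 565 and 535 CPM against 8.69, 11.04 and 8.81 CPM. No library of either group overlapped the other in these genes.

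The transcription factors of the luminal state followed. FOXA1, the pioneer factor, was at 898, 1126 and 1139.6 CPM against 31.4, 35.3 and 32.4 CPM. HOXB13, the posterior HOX factor of prostate, was at 275, 255 and 231 CPM against 37.8, 35.96 and 32.6 CPM, a smaller gap of 7.14-fold. SPDEF and GATA2 were also higher in LNCaP-ER vehicle, by 58.4-fold and 3.11-fold. GATA3 ran the other way and was the single member higher in the libraries labelled LNCaP, at 0.242, 0.424 and 0.169 CPM against 16.8, 17.8 and 15.5 CPM. The luminal keratins differed less than these factors: KRT8 was at 141, 149 and 137 CPM against 162, 162 and 164 CPM, so that the libraries labelled LNCaP were slightly higher, and KRT18 was 2.33-fold higher in LNCaP-ER vehicle at 155, 170.0 and 161 CPM against 69.4, 70.98 and 68.3 CPM. SCHLAP1, a long non-coding RNA of aggressive prostate cancer, was at 64.98, 46.3 and 45.2 CPM in LNCaP-ER vehicle and 0.625, 0.278 and 0.219 CPM in the libraries labelled LNCaP, a 139.5-fold difference that rests on 4 to 12 counts per library in the latter.

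**Figure D2:**
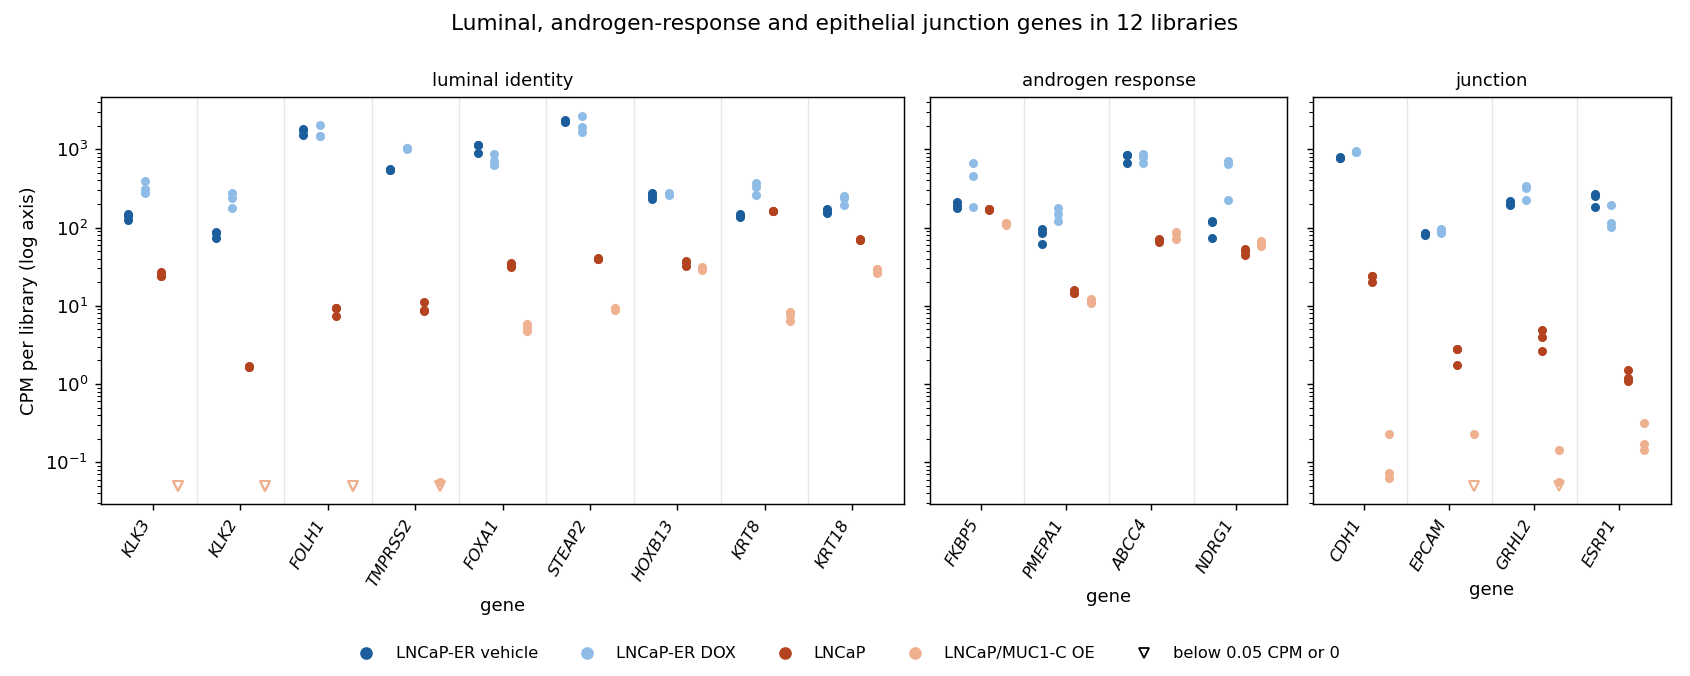
CPM of luminal, androgen-response and epithelial junction genes (y axis, log scale) in 12 libraries, with 1 point per library and open triangles for values under 0.05 CPM. The LNCaP-ER libraries stand above those labelled LNCaP for every gene shown except FKBP5, where both groups lie close together, and KRT8, where the LNCaP-ER vehicle libraries are the lower.

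KLK3 and its neighbor KLK2 are secreted serine proteases whose promoters hold an androgen response element, and both are shown because their levels split the groups by different amounts. KLK2 was at 73.3, 88.8 and 84.3 CPM in LNCaP-ER vehicle and 1.67, 1.72 and 1.64 CPM in the libraries labelled LNCaP, a 48.99-fold difference, while KLK3 differed 5.55-fold. The lines below give RefSeq promoters on GRCh38.p14, plus strand, from 250 bases before to 50 after each gene's start, for KLK3 at chr19:50854665-50854964 and KLK2 at chr19:50873189-50873488, with the run NGAACAGCAAGTGCT in capitals.
KLK3: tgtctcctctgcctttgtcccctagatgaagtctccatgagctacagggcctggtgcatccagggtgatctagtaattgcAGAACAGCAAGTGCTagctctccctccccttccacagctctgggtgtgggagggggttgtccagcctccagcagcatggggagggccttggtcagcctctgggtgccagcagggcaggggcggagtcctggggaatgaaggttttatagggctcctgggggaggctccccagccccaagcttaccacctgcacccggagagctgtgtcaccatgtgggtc
KLK2: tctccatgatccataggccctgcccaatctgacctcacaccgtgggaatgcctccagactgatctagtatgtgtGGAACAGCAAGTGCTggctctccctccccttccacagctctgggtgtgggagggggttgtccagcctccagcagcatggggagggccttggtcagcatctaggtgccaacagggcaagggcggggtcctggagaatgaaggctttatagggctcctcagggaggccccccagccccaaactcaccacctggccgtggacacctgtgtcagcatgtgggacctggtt
The 15-base run was read from the KLK3 promoter, where it begins with the only AGAACA half-site of the window, with its first base left free, so KLK3 holds it by construction. It begins 170 bases before the KLK3 start and 176 before the KLK2 start, and a search on both strands found it in these 2 promoters among 35116 of this length (0.0057%). Both promoters were identical at 245 of 309 aligned columns (79.3%). The match is a description of letters and not of factor binding. In LNCaP-ER DOX, KLK3 was at 312, 396 and 278 CPM and KLK2 at 273, 176 and 239.6 CPM, all above the vehicle libraries.

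Androgen-response genes were mostly higher in LNCaP-ER vehicle but less evenly than the luminal list. Of 40 listed genes 36 reached the filter, 25 were higher in LNCaP-ER vehicle, none was higher in the libraries labelled LNCaP and the median was 2.15 (log2). KCNN2, a calcium-activated potassium channel, was at 302, 519 and 501 CPM against 5.31, 6.66 and 5.58 CPM and had the widest gap, 75.4-fold. C1orf116, an androgen-induced gene, differed 50.9-fold, and ABCC4, a multidrug exporter, was at 658, 837 and 834 CPM against 69.97, 70.8 and 64.5 CPM, 11.3-fold. FKBP5, a co-chaperone of steroid receptors that androgen induces, was at 177, 209 and 195 CPM against 172, 174 and 169 CPM, a 1.13-fold difference beside 5.55-fold for KLK3. NDRG1 and PMEPA1 were at 72.4, 117 and 121 CPM and 61.5, 94.7 and 85.9 CPM in LNCaP-ER vehicle, with replicate 1 the lowest in each. EAF2 and MERTK were lower in every LNCaP-ER vehicle library, by less than 2-fold. GNMT, NNMT, ORM1 and STEAP4 were below the filter.

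The list of androgen-repressed and androgen-inactivating genes was mixed, with 9 of 16 genes at the filter higher in LNCaP-ER vehicle and 4 higher in the libraries labelled LNCaP, of 22 listed. ACKR3, a decoy chemokine receptor that androgen represses in LNCaP, was at 188, 141 and 156 CPM against 0.989, 0.999 and 0.766 CPM, 176-fold. OPRK1, an opioid receptor repressed by androgen, was at 8.58, 10.3 and 10.1 CPM in LNCaP-ER vehicle and at most 3 counts in each library labelled LNCaP. UGT2B15 and UGT2B17, which glucuronidate androgens and share most of their sequence so that reads may be split between them, were at 6.32, 2.67 and 3.797 CPM and 5.94, 3.06 and 3.36 CPM in LNCaP-ER vehicle. AKR1C1, AKR1C2 and AKR1C3, reductases of steroids and also near-identical, went the other way, with AKR1C2 at 0.511, 0.489 and 0.6102 CPM against 6.92, 5.83 and 5.42 CPM. SRD5A1, which makes dihydrotestosterone, was higher in LNCaP-ER vehicle at 46.8, 39.6 and 45.02 CPM against 15.3, 13.7 and 15.4 CPM.

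Among steroid receptors and cofactors, 4 of 16 genes at the filter were higher in LNCaP-ER vehicle and 2 were higher in the libraries labelled LNCaP, of 18 listed. NR3C1, the glucocorticoid receptor, was at 0.699, 2.998 and 3.39 CPM in LNCaP-ER vehicle and 89.7, 87.7 and 87.3 CPM in the libraries labelled LNCaP, a 37.3-fold lower mean. PGR, the progesterone receptor, was at 1.08, 0.228 and 0.237 CPM against 15.7, 14.8 and 15.9 CPM. NR3C2, the mineralocorticoid receptor, was higher in LNCaP-ER vehicle by 2.63-fold, and ZBTB16, a zinc finger repressor induced by androgen, by 32.9-fold at 100.3, 128 and 119 CPM against 3.85, 3.39 and 3.34 CPM. The coactivators EP300 and CREBBP differed 1.11- and 1.04-fold, with no call. ESR1 and ESR2 were below the filter.

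Epithelial junction genes set the groups apart more than the luminal list did. Of 25 listed genes 23 reached the filter, 21 were higher in LNCaP-ER vehicle, PKP2 was higher in the libraries labelled LNCaP and the median was 5.66 (log2), with CDH3 and KRT19 below the filter. CDH1, which encodes E-cadherin, was at 764, 804 and 778 CPM against 23.9, 24.2 and 20.4 CPM, and EPCAM, an epithelial adhesion molecule, at 80.6, 84.4 and 82.3 CPM against 2.81, 2.78 and 1.75 CPM. ESRP1, the epithelial splicing regulator, had the widest gap at 183, 250.3 and 265 CPM against 1.51, 1.11 and 1.204 CPM, 183-fold. Claudins 3, 4 and 7 were 81.7-, 65.2- and 65.8-fold higher in LNCaP-ER vehicle. DSP, the desmosomal plaque protein, was the exception among abundant members at 263, 238 and 247 CPM against 217, 209 and 224 CPM.

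Mesenchymal genes were the mirror image. Of 31 listed genes 23 reached the filter, none was higher in LNCaP-ER vehicle and 16 were higher in the libraries labelled LNCaP, with a median of -6.36 (log2). CDH2, which encodes N-cadherin, had no count in the 3 LNCaP-ER vehicle libraries and was at 119, 121 and 124 CPM in the libraries labelled LNCaP, at least 1298-fold higher against the floor. COL4A1, a basement membrane collagen, was likewise at 0 against 102, 102 and 100.2 CPM, at least 1086-fold. The repressors of the epithelial state ZEB1 and ZEB2 were at 0.377, 0.196 and 0.102 CPM and at 0 in LNCaP-ER vehicle, and at 40.4, 38.6 and 42.9 CPM and 49.1, 55.1 and 49.9 CPM in the libraries labelled LNCaP. Some mesenchymal genes differed less or the other way: FN1, which encodes fibronectin, was at 215, 200.3 and 203 CPM in LNCaP-ER vehicle and 111, 107 and 104 CPM in the libraries labelled LNCaP, and CALD1 was at 422, 281 and 293 CPM against 205, 205 and 198 CPM. SPARC was at 313, 322 and 309.5 CPM in the libraries labelled LNCaP but 3.898, 2.61 and 4.78 CPM in LNCaP/MUC1-C OE, which is a difference within that table.

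Markers of androgen-independent prostate lines, basal cells and cells outside the epithelium were checked in the same way. Of the 20 androgen-independent line markers 12 reached the filter, of which 11 were higher in the libraries labelled LNCaP and EGFR was higher in LNCaP-ER vehicle, and their summed level was 92.4 to 101 CPM in LNCaP-ER vehicle and 741 to 783 CPM in the libraries labelled LNCaP. CAV1, a caveolar coat protein, had no count in LNCaP-ER vehicle and 12.5, 16.2 and 12.3 CPM in the libraries labelled LNCaP, and MET, the hepatocyte growth factor receptor, was at 1.51, 0.945 and 0.712 CPM against 125, 127 and 133 CPM. EGFR, the epidermal growth factor receptor, was at 83.7, 91.5 and 91.9 CPM against 18.9, 20.6 and 18.6 CPM. Of 20 basal markers 8 reached the filter, 2 of them higher in LNCaP-ER vehicle and 3 higher in the libraries labelled LNCaP, and the defining genes KRT5 and TP63 had 0 to 2 counts in each of the 6 libraries, while LAMA3, a laminin chain, was at 289, 313 and 322 CPM against 29.9, 28.6 and 30.5 CPM. Immune and endothelial markers were largely absent, with PTPRC at 0 in the 6 libraries and 4 of 14 and 1 of 8 at the filter. Of the 4 immune markers 2 were higher in LNCaP-ER vehicle and 2 higher in the libraries labelled LNCaP; LCP1, an actin bundler that prostate cancer lines also express, was at 285, 459 and 443 CPM against 13.8, 12.1 and 10.5 CPM. Of 10 fibroblast markers 4 reached the filter and 3 were higher in the libraries labelled LNCaP, LUM at 9.79, 9.32 and 8.43 CPM among them. The part of another cell source in the group differences was not tested.

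Neuroendocrine genes, which are read in resistant prostate cancer as a sign of lineage change, were low in LNCaP-ER vehicle. Of 34 listed genes 17 reached the filter, 12 were higher in the libraries labelled LNCaP, PEG10 was higher in LNCaP-ER vehicle and the median was -5.23 (log2). CHGA, INSM1, SNAP25 and MYCN had no count in the LNCaP-ER vehicle libraries. In the libraries labelled LNCaP, CHGA, which encodes the granule protein chromogranin A, was at 4.01, 4.11 and 3.504 CPM, and INSM1, a neuroendocrine transcription factor, at 5.05, 5.38 and 5.42 CPM. UCHL1, a neuronal deubiquitinase, was at 1.48, 1.304 and 1.32 CPM against 241, 239.7 and 236 CPM and NCAM1, a neural adhesion molecule, at 0, 0.0652 and 0.102 CPM against 73.7, 75.98 and 72.8 CPM. ONECUT2, a factor of resistant prostate cancer, separated the groups little at 64.1, 61.7 and 63.7 CPM against 73.6, 65.4 and 71.3 CPM, and PEG10, a retrotransposon-derived gene, was at 8.04, 3.81 and 3.46 CPM against 2.39, 1.33 and 1.48 CPM.

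Stem cell genes divided. Of 24 listed genes 19 reached the filter, 4 were higher in LNCaP-ER vehicle and 8 were higher in the libraries labelled LNCaP. Among all genes at the filter 18.9% and 29.5% were called in these directions. SOX2 and LIN28B, pluripotency factors, had no count in LNCaP-ER vehicle and were at 13.1, 13.04 and 12.6 CPM and 182, 172 and 180.5 CPM in the libraries labelled LNCaP, at least 138- and 1911-fold higher. HEY1, a Notch effector, was at 1.21, 1.34 and 0.7797 CPM against 310.1, 259.6 and 275 CPM. BMI1, KLF4, JAG1 and ALDH1A3 were the 4 higher in LNCaP-ER vehicle, with KLF4, a reprogramming factor, at 11.4, 18.8 and 16.4 CPM against 4.32, 3.55 and 3.89 CPM and ALDH1A3, a luminal aldehyde dehydrogenase, at 102, 124 and 119 CPM against 12.2, 11.8 and 10.4 CPM. NANOG, POU5F1, PROM1 and CD44 were among the members below the filter.

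**Figure D3:**
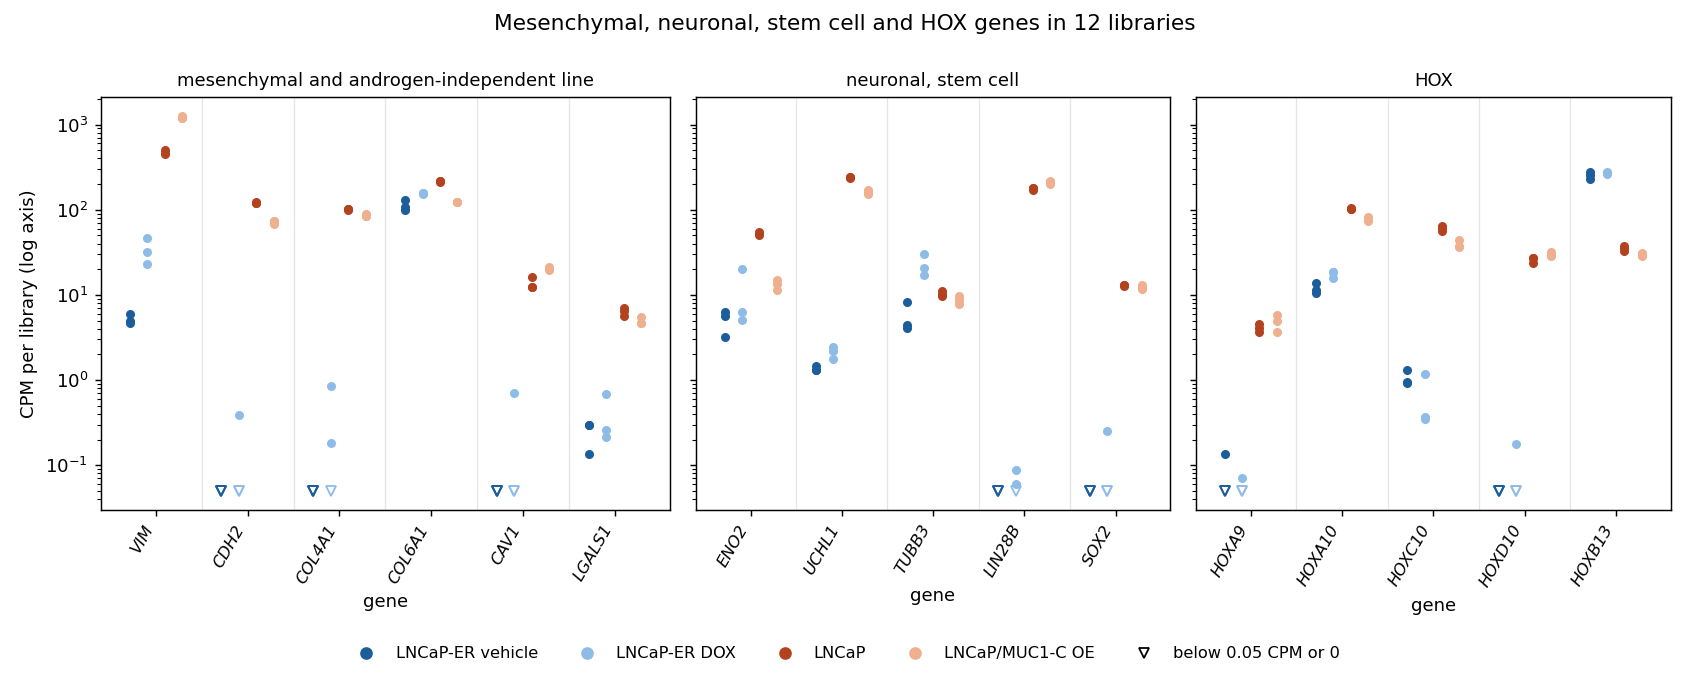
CPM of mesenchymal, androgen-independent line, neuronal, stem cell and HOX genes (y axis, log scale) in 12 libraries, 1 point per library, with open triangles for values under 0.05 CPM. CDH2, COL4A1, CAV1, LIN28B, SOX2 and HOXD10 have no count in LNCaP-ER vehicle, and HOXB13 is the gene shown that is higher there.

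HOX genes, which mark body position, were mostly higher in the libraries labelled LNCaP. Of 37 listed genes 36 reached the filter, 32 were higher in the libraries labelled LNCaP and 2, HOXB13 and HOXC12, were higher in LNCaP-ER vehicle, with a median of -5.71 (log2). HOXB9 was the most abundant in the libraries labelled LNCaP, at 186, 225 and 206 CPM against 3.17, 5.801 and 4.41 CPM in LNCaP-ER vehicle. HOXD10, HOXD11, HOXD9 and HOXC11 had no count in LNCaP-ER vehicle and were at 27.2, 23.98 and 26.8 CPM, 23.01, 28.1 and 24.96 CPM, 8.38, 7.05 and 7.34 CPM and 17.96, 20.9 and 21.1 CPM in the libraries labelled LNCaP. In LNCaP-ER vehicle HOXB13, HOXC6, HOXA10 and HOXC13 led the family, with HOXC6 at 20.9, 17.01 and 13.6 CPM and HOXC13 at 9.12, 12.5 and 13.9 CPM. LNCaP/MUC1-C OE showed the pattern of the libraries labelled LNCaP, for example HOXD13 at 64.99, 66.3 and 65.5 CPM beside 53.7, 51.1 and 49.7 CPM.

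S phase genes were lower in LNCaP-ER vehicle, while most G2/M genes were called in neither direction. Of 41 S phase genes, each at the filter, 40 were higher in the libraries labelled LNCaP, with a median of -1.98 (log2), and E2F8 overlapped. MCM4, a subunit of the replicative helicase, was at 227, 138 and 139.6 CPM against 866, 864 and 838 CPM, and PCNA, the polymerase clamp, was at 250.1, 179 and 175 CPM against 436, 424 and 428 CPM. Of 40 G2/M genes 15 were higher in the libraries labelled LNCaP and none was higher in LNCaP-ER vehicle, with a median of -0.68. MKI67, the proliferation antigen, was at 449, 251 and 242 CPM in LNCaP-ER vehicle and 364, 349.8 and 364 CPM in the libraries labelled LNCaP, so that replicate 1 lay above and replicates 2 and 3 below. CDK1, the mitotic kinase, was higher in every LNCaP-ER vehicle library at 328, 257 and 258 CPM against 176, 158 and 176 CPM, while BIRC5, which encodes survivin, was 5.82-fold lower. Replicate 1 was the highest LNCaP-ER vehicle library in MCM4, PCNA, MKI67, CDK1 and BIRC5.

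The glycolysis genes went both ways. Of 24 listed genes 23 reached the filter and the median was -0.61 (log2). Of the 23, 6 were higher in LNCaP-ER vehicle and 8 in the libraries labelled LNCaP, beside 18.9% and 29.5% of all genes. The glucose transporters went both ways: SLC2A1 (GLUT1) was at 68.9, 75.9 and 78.7 CPM against 22.1, 20.8 and 22.6 CPM and SLC2A12 (GLUT12) at 77.1, 90.3 and 91.5 CPM against 17.8, 17.98 and 19.5 CPM, while SLC2A3 (GLUT3) was at 0.242, 0.391 and 0.814 CPM against 20.9, 21.98 and 20.7 CPM. HK2, the hexokinase that traps glucose, overlapped between groups at 72.6, 84.8 and 90.3 CPM against 74.5, 70.98 and 72.04 CPM. PKM, LDHA and LDHB were lower in LNCaP-ER vehicle, with PKM at 730.0, 676 and 658 CPM against 1465, 1561 and 1477 CPM, LDHA at 533, 467 and 487 CPM against 1124, 1357 and 1252 CPM and LDHB at 156, 171 and 164 CPM against 1541, 1439 and 1491 CPM. GPI and PGAM1, which lie earlier and later in the pathway, were 2.09- and 2.48-fold higher in LNCaP-ER vehicle. Genes of uncertain count were judged by name, from a listed copy or an overlapping gene whose hyphenated name includes theirs. All replication-dependent histone and small structural RNA genes were also set as uncertain. Without the genes of uncertain count the glycolysis list median was 0.60, so that its sign changed.

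MYC and Wnt genes differed in direction. MYC, the growth-promoting transcription factor, was at 379, 597 and 594 CPM in LNCaP-ER vehicle and 111, 121 and 121 CPM in the libraries labelled LNCaP, 4.45-fold higher in the former. CTNNB1, which encodes β-catenin, was at 261, 217 and 233 CPM against 788, 763 and 782 CPM, and its partner TCF7L2 (TCF4) at 30.8, 28.3 and 29.3 CPM against 49.1, 54 and 46.2 CPM, both lower in every LNCaP-ER vehicle library. The other TCF factors LEF1, TCF7 and TCF7L1 were 62.1-, 34.98- and 45.8-fold lower in LNCaP-ER vehicle, and the Wnt target AXIN2 was at 5.94, 7.17 and 5.36 CPM against 19.2, 19.6 and 17.1 CPM. Of 29 listed genes 24 reached the filter, with 4 higher in LNCaP-ER vehicle and 9 higher in the libraries labelled LNCaP. Over all genes at the filter the shares called were 18.9% and 29.5%. MUC1, the target of the uninduced shRNA, had 26, 10 and 13 counts in LNCaP-ER vehicle and 30, 25 and 31 in the libraries labelled LNCaP, or 0.699, 0.326 and 0.441 CPM against 1.56, 1.39 and 1.697 CPM. The same gene was at 586, 721 and 718 CPM in LNCaP/MUC1-C OE. Of 12 mucins listed 3 reached the filter, MUC20 being higher in LNCaP-ER vehicle and MUC3A, like MUC1, in the libraries labelled LNCaP.

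Receptor kinases and transporters differed by family member. ERBB3 and ERBB2, partners of the epidermal growth factor receptor, were at 297, 321 and 309 CPM and 149.6, 143 and 141 CPM in LNCaP-ER vehicle against 17.7, 16.4 and 15.3 CPM and 45.9, 42.8 and 47.5 CPM. KIT, FGFR3, FGFR2, FGFR1 and RET were lower in LNCaP-ER vehicle, with FGFR1 at 10.8, 7.01 and 7.25 CPM against 94.6, 97.96 and 98.6 CPM. Of the AKT kinases, AKT1 overlapped at 198, 170.4 and 162 CPM against 173, 185 and 185 CPM, and AKT2 was 3.37-fold higher in LNCaP-ER vehicle. ABCB1, the P-glycoprotein exporter, had 0 to 3 counts per LNCaP-ER vehicle library and 20.5, 25.5 and 26.4 CPM in the libraries labelled LNCaP, while ABCC1 was 2.52-fold higher in LNCaP-ER vehicle. In all, 28 of 30 genes reached the filter, 9 higher in LNCaP-ER vehicle and 11 in the libraries labelled LNCaP.

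Genes of the integrated stress response, in which ATF4 drives amino acid supply, leaned toward LNCaP-ER vehicle, with 16 of 30 higher there, 5 higher in the libraries labelled LNCaP and a median of 1.19 (log2). Their summed level was 4234 to 6456 CPM in LNCaP-ER vehicle and 2718 to 2789 CPM in the libraries labelled LNCaP. It varied within each table, with LNCaP-ER DOX at 2273 to 4413 CPM and LNCaP/MUC1-C OE at 5026 to 7402 CPM. SLC7A11, the cystine importer, was at 467, 646 and 685 CPM against 12.7, 11.7 and 11.1 CPM, 50.7-fold, and PSAT1, of serine synthesis, at 550.0, 783 and 812 CPM against 164, 163 and 158 CPM. TRIB3 and DDIT3, stress effectors, were at 110.2, 304 and 313 CPM and 13.3, 48.9 and 51.5 CPM in LNCaP-ER vehicle, against 20.6, 22.1 and 21.4 CPM and 7.29, 4.94 and 7.45 CPM in the libraries labelled LNCaP. Replicate 1 was the lowest LNCaP-ER vehicle library in each of these genes. ASNS, CBS, SLC7A5 and ALDH1L2 were higher in the libraries labelled LNCaP despite belonging to the same list, with ASNS, which makes asparagine, at 15.3, 18.9 and 19.7 CPM against 80.4, 71.98 and 72.6 CPM. ATF4 itself was at 437, 626 and 623 CPM against 474, 495 and 459 CPM, overlapping.

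Most fatty acid and sterol synthesis genes were called in neither direction, and those called went both ways. FASN, fatty acid synthase, was at 2374, 1834 and 1778 CPM against 374, 356 and 379.8 CPM, SREBF1, its regulator, at 375, 299 and 285 CPM against 23.3, 18.2 and 20.3 CPM, and FADS1, a desaturase, at 213, 220.2 and 215 CPM against 3.59, 3.22 and 3.18 CPM. ACACA and FADS2 were also higher, by 3.89- and 25.2-fold. The sterol enzymes HMGCS1 and SQLE were higher in the libraries labelled LNCaP, with SQLE at 97.4, 75.3 and 70.6 CPM against 249.8, 256 and 241 CPM. Of 30 listed genes 29 reached the filter, with a median of 0.63 (log2). Of the 29, 7 were higher in LNCaP-ER vehicle, 2 in the libraries labelled LNCaP and 20 in neither.

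Zinc and polyamine genes, which serve the secretory metabolism of prostate epithelium, were called higher in LNCaP-ER vehicle or in neither direction. SLC30A4, a zinc exporter, was at 1104, 1292 and 1351 CPM against 23.01, 24.9 and 22.6 CPM, 53.2-fold, and the metallothioneins MT2A and MT1X, which bind zinc, were 10.4- and 8.66-fold higher in LNCaP-ER vehicle, 5 of 14 genes at the filter being higher there and none in the libraries labelled LNCaP. AMD1, which supplies the aminopropyl group of polyamines, was at 1692, 1839 and 1921 CPM against 334, 358 and 356 CPM, whereas ODC1, the first enzyme of the pathway, was at 401, 315 and 301 CPM against 424, 379.7 and 393 CPM. Of 11 polyamine genes at the filter 4 were higher in LNCaP-ER vehicle and none in the libraries labelled LNCaP. With no overlap alone, 5 of these 11 were higher in LNCaP-ER vehicle and 3 were lower. The same counts for the 14 zinc and metallothionein genes were 9 and 2, beside 36.1% and 50.9% of all genes.

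Interferon-stimulated genes showed 14 of 30 higher in LNCaP-ER vehicle and 10 higher in the libraries labelled LNCaP, of 36 listed. The adjacent pair DTX3L and PARP9, an ADP-ribosylation complex, was at 86.6, 91.2 and 90.6 CPM and 63.99, 53.1 and 52.3 CPM in LNCaP-ER vehicle and under 1 CPM in each library labelled LNCaP. BST2, which encodes the virus-tethering protein tetherin, was at 0.377, 0.196 and 0.0678 CPM against 40.3, 39.5 and 44.6 CPM, and IFIT1 was also higher in the libraries labelled LNCaP. MHC class I heavy chains were lower in LNCaP-ER vehicle, HLA-B at 16.4, 19.7 and 19.8 CPM against 202, 210.0 and 206 CPM, although HLA reads depend on how alleles and copies are placed, while B2M, their light chain, overlapped at 167, 233 and 229 CPM against 225, 240.3 and 224 CPM. In that list 6 of 15 genes at the filter were higher in the libraries labelled LNCaP and none in LNCaP-ER vehicle.

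Of 26 p53 targets 4 were higher in LNCaP-ER vehicle and 7 in the libraries labelled LNCaP. Both shares were near the 18.9% and 29.5% of all genes. GDF15, a stress cytokine, was at 233, 530.1 and 551 CPM against 5.102, 6.16 and 5.69 CPM and TP53INP1 at 489, 387 and 373 CPM against 62.99, 62.4 and 58.9 CPM, whereas CDKN1A, which encodes the p21 inhibitor, was at 208, 199 and 194 CPM against 126, 128 and 128 CPM and MDM2 at 406, 385 and 382 CPM against 476, 432 and 465 CPM. Of 18 hypoxia genes at the filter 5 were higher in LNCaP-ER vehicle, BNIP3 at 135, 163 and 167 CPM against 42.4, 47.9 and 42.97 CPM among them, and 4 were higher in the libraries labelled LNCaP, ADM at 0.753, 0.163 and 0.305 CPM against 9.27, 8.44 and 7.83 CPM among them.

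Among the autosomal genes listed in both tables, none took 1% of any of the 6 libraries. The 10 leading genes of each library held 4.12% to 4.44% of LNCaP-ER vehicle counts and 2.99% to 3.09% of counts in the libraries labelled LNCaP, and 46 of the 100 leading genes were shared. In LNCaP-ER vehicle the leaders were the elongation factors EEF1A1, at 0.624% to 0.755% of counts, and EEF2, the poly(A)-binding protein PABPC1, MALAT1, ACTB, RPPH1, RMRP, HSPA8, GAPDH and ABHD2. ABHD2, a lipase, was at a mean of 2559 CPM against 138 CPM. In the libraries labelled LNCaP the chaperone HSP90AA1 led with 0.512% to 0.542%, at a mean of 5288 CPM against 855 CPM in LNCaP-ER vehicle, followed by ACTG1, EEF1A1, RPL8, HSP90AB1, RPS6, EEF2, RACK1, GAPDH and ACTB. Cytosolic ribosomal protein genes as a class were close, at 46034 to 55749 against 51627 to 53195 CPM.

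Small structural RNA and replication-dependent histone genes, whose RNAs lack a poly(A) tail, were higher in LNCaP-ER vehicle, as were some RNAs held in the nucleus. Small structural RNA genes summed to 6258 to 10360.2 CPM in LNCaP-ER vehicle and 128 to 184 CPM in the libraries labelled LNCaP, with LNCaP-ER DOX at 4011 to 8879 CPM and LNCaP/MUC1-C OE at 129 to 171 CPM. RPPH1, the RNA of ribonuclease P, was at 2869, 5121 and 5849.8 CPM against 0.364, 0.777 and 0.493 CPM, and RMRP, a related RNA that processes ribosomal RNA, at 2634, 3805 and 3730.2 CPM against 0.781, 0.833 and 0.876 CPM. Replication-dependent histone genes, whose messages end in a stem-loop instead of a tail, summed to 2657 to 3026 CPM against 142 to 161 CPM, and 40 of 41 at the filter were higher in LNCaP-ER vehicle while 40 of 41 S phase genes were higher in the libraries labelled LNCaP. Of 10 nuclear-retained long RNAs 7 reached the filter, 4 of them higher in LNCaP-ER vehicle and 3 called in neither direction. MALAT1 was at 7746, 3197 and 3453 CPM in LNCaP-ER vehicle, with replicate 1 the highest, against 272, 172 and 202 CPM, and NEAT1, of paraspeckles, was at 1348, 454 and 650.4 CPM against 107, 75.8 and 79.5 CPM. The labels name the same poly(A)-selecting kit for both tables, and the part of RNA selection or read counting in these differences was not tested.

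**Figure D4:**
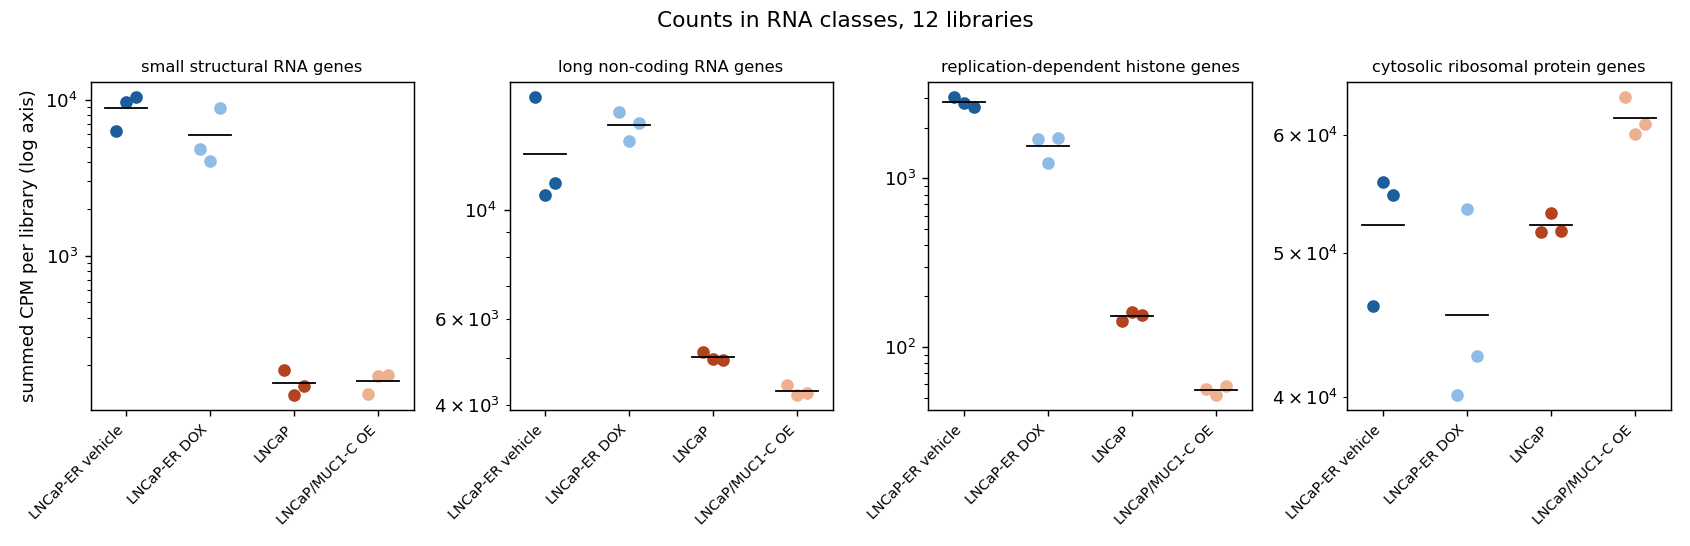
Summed CPM of small structural RNA, long non-coding RNA, replication-dependent histone and cytosolic ribosomal protein genes (y axes, log scale). Each library is 1 point and a line marks the group mean. Small structural RNA and replication-dependent histone genes are high in both LNCaP-ER groups and low in both LNCaP groups, while ribosomal protein genes lie between 40126 and 63572 CPM in the 12 libraries.

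Among genes with a mean of at least 10 CPM, the widest gaps toward LNCaP-ER vehicle included RPPH1, RMRP, RPL21, H1-5, SCARNA10, H3C2, MIA2, H3P6, H4C2, RPL13AP5, H2AC20, RNF5, DENND10 and ZNF141. Many of these belong to the RNA classes above or have near-identical copies, so that their counts depend on how reads were placed: RPL21, a ribosomal protein gene with processed copies, was at 260.1, 342 and 339 CPM against 0, 0 and 0.0547 CPM, and is given as uncertain. ZNF141, a zinc finger gene with no such copy listed, was at 59.98, 60.3 and 59.1 CPM against 0.208, 0.167 and 0.219 CPM.

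The 15 widest gaps toward the libraries labelled LNCaP were IGF2BP1, CSNK1E, NID1, U2AF1, AKR1B1, CA2, LIN28B, GSTP1, CCND2, PCDH10, SCRN1, ADGRL2, ALDH1A2, HMGA2 and ALDH7A1. IGF2BP1, a fetal RNA-binding protein, had no count in LNCaP-ER vehicle and was at 537, 547 and 549.8 CPM in the libraries labelled LNCaP, at least 5830.0-fold higher. CCND2, a G1 cyclin, and HMGA2, a fetal chromatin protein, were likewise at 0 against 164, 174 and 171 CPM and 146, 147 and 145 CPM. CSNK1E shares exons with a read-through gene and U2AF1, AKR1B1, GSTP1, CCND2 and ALDH7A1 have copies or pseudogenes listed, so their counts are uncertain. In LNCaP/MUC1-C OE, IGF2BP1 was at 748, 717 and 770.0 CPM.

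By chromosome the median log2 fold ran from -0.78 on chromosome 22 to 0.27 on chromosome 19. In 249 runs of 50 neighboring genes at the filter, 12 had a median below -1 and 1 had a median above 1. The lowest, from IGF2BP3 to KBTBD2 on chromosome 7, had a median of -2.90 and holds the HOXA cluster, with 34 of 50 genes higher in the libraries labelled LNCaP. The highest, from PROB1 to PCDHGA7 on chromosome 5, had a median of 2.51 with 28 of 50 genes higher in LNCaP-ER vehicle. Of the genes higher in LNCaP-ER vehicle, 2317 (93.9%) also separated both LNCaP-ER groups from both LNCaP groups with no overlap over the 12 libraries, and of those higher in the libraries labelled LNCaP 3245 (84.1%) did.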

How the data were processed

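RNA from cells cultured in triplicate was isolated with an RNeasy kit and made into TruSeq Stranded mRNA libraries, per the labels. The authors deposited read counts per gene, with a table for the LNCaP-ER lines and another for the LNCaP lines, and TPM values for the former. The submitters' processing notes name STAR and DESeq2 with GRCh38 and hg38, and the counting step is not given in the sources used here. The deposited TPM entered as an alternative only. A total of 12 columns from 2 other cell lines were not used. Labels do not say that replicates came from separate cultures started independently, so the spread may be technical.

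Genes were joined across the tables by name and RefSeq synonym: 26982 of 28008 and 24093 of 25435 names matched, 24045 were in both and 22913 were autosomal, 21830 of them under the same name. CPM is a count over the column total, times 1000000. Genes with a mean of at least 1 CPM over the 6 libraries were described, and group means under 3 counts per library were set to that floor. A gene was called higher where the libraries of the groups did not overlap and the means differed at least 2-fold; there was no test. The call rule was tested on simulated data. Totals per library were 29499008 to 37178704 counts in LNCaP-ER vehicle and 18017941 to 19208944 in the libraries labelled LNCaP, which sets the floor, and floors cover counting error only.

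The members and gene lists were chosen with earlier results of these data known, and the ribosomal protein and replication-dependent histone lists were added after values were seen. Genes were named by a rule: MUC1, the 10 leading genes of each group, the 15 widest gaps in each direction, in each list the 3 most abundant and the 3 widest gaps, and 7 genes of the MYC, Wnt and glycolysis comparison. Other list members named in the text were chosen after their values were seen. Some genes that the rule covers are not reported here. Alternatives were TMM (edgeR 4.0.16) and median-of-ratios (DESeq2 1.42.0) factors, other totals, filters, floors and thresholds, deposited TPM and leaving out each replicate. Those with same-named genes only, without genes of uncertain count and with LNCaP/MUC1-C OE in place of the libraries labelled LNCaP were chosen after seeing the data. Python 3.11.15, pandas 2.3.3, numpy 2.4.6, Biopython 1.88 and R 4.3.3 were used. Promoter sequences are from RefSeq on GRCh38.p14.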

Additional observations from a re-analysis of the deposited data

How the results depend on the processing

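No paired analysis was possible because no test was made and replicate numbers do not link the lines. The 2468 genes higher in LNCaP-ER vehicle and 3860 higher in the libraries labelled LNCaP became 1522 and 2395 at a mean of at least 10 CPM, 1299 and 2081 at 4-fold or more, and 4724 and 6658 with no overlap alone, which are 36.1% and 50.9% of the genes. With TMM scaling they were 2927 and 3334, with median-of-ratios 2903 and 3360, and with LNCaP/MUC1-C OE in place of the libraries labelled LNCaP 2882 and 3282. Leaving out 1 replicate gave 2357 to 2555 and 3762 to 4108. The luminal median of 4.47 was 3.21 with no filter, 6.89 with LNCaP/MUC1-C OE and 3.94 to 4.49 without 1 replicate. The junction median of 5.66 was 5.12 with no filter, 5.07 with a pseudocount of 0.5 CPM and 8.19 with LNCaP/MUC1-C OE. The mesenchymal median of -6.36 was -3.83 with no filter, -7.11 at 10 CPM, -4.03 with the pseudocount, -2.38 with TPM, where genes listed at 0 in LNCaP-ER vehicle drop out, -3.42 without genes of uncertain count and -6.56 to -5.43 without 1 replicate. The neuroendocrine median of -5.23 was -2.23 with no filter, -3.13 with the pseudocount, -3.61 with TPM and -1.39 with LNCaP/MUC1-C OE. The 10 leading genes held 4.67% and 3.21% of counts as a share of the members' counts. Single genes were run under the scaling, filter, pseudocount and left-out replicate alternatives, where none of the 195 genes covered by the naming rule with a gap of 2-fold or more changed sign, while AKT1, B2M, CREBBP, OAZ1 and SLC39A14, with smaller gaps, did so with TMM. The sign of the medians of the MHC class I, basal, ribosomal protein, receptor kinase, glycolysis, hypoxia, p53, polyamine and steroid receptor lists changed under at least 1 alternative; the polyamine median of -0.08 was 0.12 with TMM. Apart from those set by construction, the cause was not tested. Depth limits genes near the floor, and MUC1 rests on 10 to 31 counts per library.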
